A study of Mus musculus with 4 samples.

Results

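The cells described here are the macrophages of mouse mammary glands in which deletion of LATS1 and LATS2, kinases of the Hippo pathway, was directed to the Krt8-expressing epithelium. Single-cell RNA-sequencing (10x Genomics 3' v3) was performed on 4 libraries, 1 per mouse, from live-sorted cells of 3 pairs of glands. A barcode was kept if it held more than 500 genes and less than 20% mitochondrial UMIs, and a kept cell was called a macrophage if at least 4 of the 8 genes C1qa, C1qb, C1qc, Csf1r, Lyz2, Tyrobp, Fcer1g and Adgre1 were detected, Epcam was under 10 UMIs per 10000 UMIs of the cell (CP10K) and no UMI of Cd3d, Cd3e or Cd3g was present. This rule took 565 of 18200 kept cells, of which 556 came from the 2 LATS1/2 KO mice and 9 from the 2 WT mice. Since these genes chose the cells, their own levels are a description and no test was made of the macrophages against other cells.

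All 4 mice carried floxed Lats1 and Lats2 alleles and a lox-stop-lox EYFP reporter, and all received 2 mg tamoxifen in corn oil by intraperitoneal injection on each of 5 consecutive days. Tissue was collected 7 days after the last dose. The WT mice lacked Cre and had heterozygous EYFP, LATS1/2 KO replicate 1 carried Krt8-CreERT2 with heterozygous EYFP, and replicate 2 carried Krt8-CreERT2 with homozygous EYFP. The mice were adult nulliparous females. Cre was expressed from the Krt8 promoter, which is active in luminal epithelium, so the macrophages were not the cells in which deletion was directed. WT therefore means floxed alleles without Cre, and no library had Cre with intact Lats1 and Lats2.

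Macrophages take up dying cells and debris, present antigen on MHC class II molecules, and secrete chemokines, proteases and growth factors. They depend on the receptor CSF1R and its ligands CSF1 and IL-34. In the mammary gland they line the ducts and lie in the stroma, and in tumors they arise largely from CCR2-positive monocytes that mature in the tissue. The mannose receptor MRC1 (CD206), an endocytic lectin, is widely used to split macrophages into subsets.

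The macrophages held 1013524 UMIs in LATS1/2 KO replicate 1 and 1517699 in replicate 2, with medians of 4201 and 3905 UMIs per cell against 6999 and 6209 in the other kept cells. In the WT libraries they held 30750 and 31543 UMIs in all. Kept cells of different libraries shared 43 barcodes over all pairs, and 0 of these belonged to a macrophage. Epithelial RNA was present in the macrophage droplets, where 6 luminal genes (Krt8, Krt18, Wfdc18, Csn3, Plet1 and Trf) reached 9.28% and 9.71% of their epithelial level in the macrophages of replicates 1 and 2. Krt8 was detected in 86.1% and 61% of the macrophages. At the edge of the rule, 27 and 53 macrophages had exactly 4 of the 8 markers, while 34 and 69 cells that passed the other limits had 3. Cd68, a lysosomal macrophage protein that the rule did not use, was detected in 55.6% and 39.6% of the former and in 23.5% and 30.4% of the latter. A further 16 and 21 cells had 4 or more markers but were left out for Epcam.

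The LATS1/2 KO libraries held 223 and 333 macrophages and the WT libraries 4 and 5. Their share of the kept cells was 0.0814% (95% interval 0.0222 to 0.208) and 0.142% (95% interval 0.0462 to 0.332) in WT replicates 1 and 2. It was 4.96% (95% interval 4.34 to 5.63) and 6.32% (95% interval 5.67 to 7.01) in LATS1/2 KO replicates 1 and 2. The groups did not overlap, with means of 0.112% ± 0.043 (SD, n = 2) and 5.64% ± 0.961 (SD, n = 2). The exact permutation test over the 4 libraries gave p = 0.333, two-sided, which is the smallest value that 2 against 2 mice allow. These intervals are exact (Clopper-Pearson) and cover counting error only. Among kept cells with Epcam under 10 CP10K the shares were 0.693% and 1.42% in WT and 16.3% and 13.6% in LATS1/2 KO. The order of the groups was thus the same under this limit. The limit did not remove all epithelial RNA. In the other kept cells under it, 10 epithelial markers summed to 3275 and 4217 CPM (defined below) in WT. In LATS1/2 KO they summed to 12148 and 8641 CPM. The shares under this limit therefore cannot be read as shares of non-epithelial cells. With cells thinned to 2000 UMIs, and 288, 107, 470 and 696 shallower cells left out, the rule took 0.0649%, 0.088%, 4.22% and 5.27% of the remaining cells in the same order of libraries. A share of sorted, dissociated cells also depends on how well each cell type survived dissociation, and this was not tested.

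**Figure D1:**
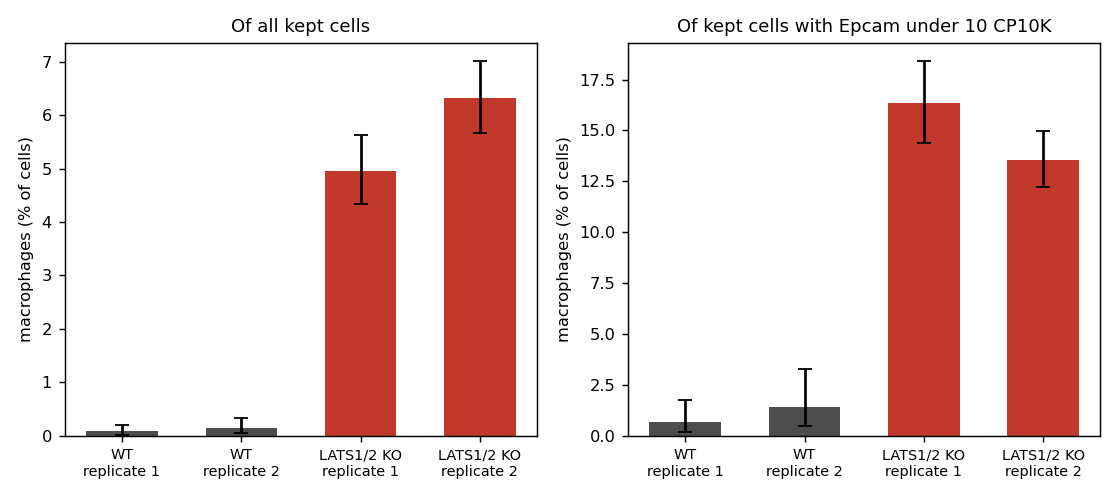
Macrophages as a percentage of all kept cells (left) and of kept cells with Epcam under 10 CP10K (right) in each of the 4 libraries, 1 bar per mouse, with exact 95% binomial intervals as error bars. Both LATS1/2 KO bars (4.96% and 6.32% of kept cells) stand above both WT bars (0.0814% and 0.142%).

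The rule's genes were not equally common in the cells they chose. C1qb, a subunit of the complement initiator C1q, was detected in 91% and 92.5% of the LATS1/2 KO macrophages, and Lyz2, the lysozyme of myeloid cells, in 96.9% and 94.3%. Adgre1, which encodes F4/80, was found in 30.5% and 33.9%, and Csf1r in 71.7% and 64%. The 9 WT cells differed between mice. In WT replicate 1, 2 of 4 cells had C1qa and all 4 had Adgre1, whereas in WT replicate 2, 0 of 5 had C1qa and 1 of 5 had Adgre1. C1qb and C1qc were also at 0 in the WT replicate 2 cells, which passed through Csf1r, Lyz2, Tyrobp and Fcer1g.

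The label was then checked with 10 macrophage markers outside the rule. Their summed level was 31448 and 31650.5 CPM (counts per 1000000 UMIs of the summed cells) in the macrophages of LATS1/2 KO replicates 1 and 2, against 739.5 and 988 CPM in the other cells, and all 10 were detected. Cd68 had 375 CPM and 421 CPM in the macrophages of replicates 1 and 2, against 6.49 and 10 CPM in the other cells. Apoe, a lipid carrier that tissue macrophages secrete, had 23504 and 24011 CPM against 246 and 527. It was detected in 97.8% and 97.3% of the macrophages. The pan-leukocyte gene Ptprc (CD45) was found in 52% and 52.9%. In the cells of WT replicates 1 and 2 the 10 markers summed to 23870 and 4375 CPM. Ms4a7, Fcgr1 and Mertk were not detected in those of WT replicate 2. Monocyte markers summed to 683 and 2346 CPM in the WT cells, beside 866 and 1186 CPM in the LATS1/2 KO macrophages. The label is thus less sure for the cells of WT replicate 2.

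Receptors, chemokines and a protease were among the genes with the highest ratios to other cells. Among 1662 genes outside the rule that were detected in at least 25% of the macrophages of each LATS1/2 KO library, 140 had a ratio to the other cells above 10 in both. The highest was Fcgr1, the high-affinity receptor for IgG, with 309.8 and 176 CPM against 1.22 and 0.902. Pf4, a platelet and macrophage chemokine, had 652 and 249.7 CPM against 2.57 and 1.39. Msr1, a scavenger receptor for modified lipoproteins, had 202 and 211 CPM against 1.35 and 1.5. These levels were close to each other in the 2 mice for Msr1 and further apart for Fcgr1 and Pf4, both lower in replicate 2. The other leading genes were the IgG receptor Fcgr3, the protease cathepsin S (Ctss), the C3a receptor C3ar1, the lipid-sensing receptor Trem2, Clec4n (Dectin-2), the inhibitory lectin Clec4a2, the MS4A family members Ms4a6b, Ms4a6c and Ms4a7, the UDP receptor P2ry6, the coagulation factor subunit F13a1, the chemokine Ccl6, Ly86 (MD-1), Tnfaip8l2, Cyp4f18, Igsf6 and AF251705. Over all 20, the smaller of the 2 ratios ran from 109.9 to 195. Against only the other cells with Epcam under 10 CP10K, it ran from 31 (Clec4a2) to 97.9 (Fcgr1).

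**Figure D2:**
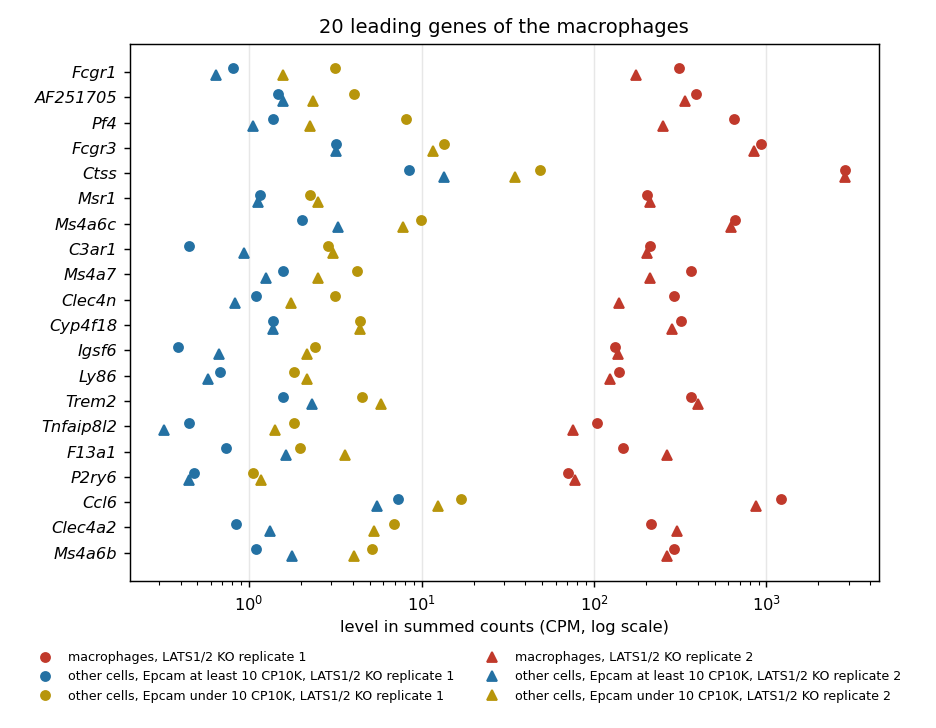
Level (CPM of summed counts, log scale) of the 20 leading genes in the macrophages (red), in other kept cells with Epcam at or above 10 CP10K (blue) and in other kept cells with Epcam under 10 CP10K (yellow), with circles for LATS1/2 KO replicate 1 and triangles for replicate 2. For each gene both red points lie to the right of all others, as with Fcgr1 at 309.8 and 176 CPM in the macrophages.

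Receptors of the colony-stimulating factor family were at higher CPM in the macrophages than in the other cells, and both CSF1R ligands were at lower CPM. Csf2ra, the ligand-binding chain of the GM-CSF receptor, had 252 and 201 CPM against 12.8 and 12.7, and the shared signaling chain Csf2rb had 162 and 175 CPM against 12.1 and 14.1. The ligand Csf1 had 23.7 and 15.8 CPM against 71.5 and 87.2, and Il34, the second ligand of CSF1R, had 2.96 and 2.64 CPM against 17.7 and 16.3. The order was the same in both mice for each of these 4 genes. GM-CSF itself (Csf2) had 1 UMI and 0 UMIs in the macrophages of the 2 mice.

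Chemokine receptors and chemokines were next. As a background for these counts, 374 of 7542 genes with at least 10 UMIs in the macrophages of each mouse were at least 10 times higher there than in the other cells of both libraries, or 4.96%. The macrophages were chosen by expression, so nothing is read from the comparison with this share. Of 13 chemokine and cytokine receptors, 9 were past this ratio, among them Ccr2, the receptor that brings monocytes out of the blood, with 201 and 171 CPM against 1.51 and 2.52. The IL-10 receptor chain Il10ra had 44.4 and 64.6 CPM against 0.45 and 0.948. Of 14 chemokines with enough UMIs, 7 were past it. Ccl6 had 1219 and 865 CPM against 8.97 and 7.42, Ccl3 had 174 and 217 CPM against 1.32 and 2.34 and Cxcl2, a neutrophil attractant, had 1344 and 1548 CPM against 80.8 and 53.3. Ccl2, the ligand of CCR2, had 408 and 488 CPM against 38.2 and 44.2, so RNA of both members of that pair was present in the macrophages.

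Among inflammatory cytokines, Il1b had 326 and 157 CPM against 4.76 and 5.37 and its antagonist Il1rn had 124 and 85.7 CPM against 3.55 and 2.54. Osm, an IL-6 family cytokine that acts on epithelium and fibroblasts, had 114 and 94.9 CPM against 0.556 and 1.34. Of 10 genes of classical activation, 8 were detected in each mouse, with a sum of 728 and 447 CPM against 162 and 154 in the other cells. Cd80, Cd86 and Il1b of this list were past the 10-fold ratio, while Nos2 was detected in 1 macrophage of replicate 1 and none of replicate 2, and Il12b was at 0 UMIs in both. Arg1, the arginine-degrading enzyme linked to alternative activation and to tumor macrophages, had 1117 and 714 CPM against 49.9 and 49.7. It was detected in 57.4% and 47.1% of the macrophages and, at 2000 UMIs per cell, in 51.9% and 40.8% against 5.59% and 5.8% of the cells with Epcam at or above 10 CP10K (18% and 17% unthinned). Of the macrophages, 189 of 223 and 260 of 333 were deep enough for this thinning. The Arg1 share in macrophages was above that in the epithelial droplets of both mice.

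Of 11 secreted growth factor genes with enough UMIs, 1 passed the 10-fold ratio, Tgfbi, a TGF-beta-induced matrix protein, with 1619 and 1350.1 CPM against 16.5 and 17.9. Tgfb1 had 220 and 195 CPM against 44.8 and 45.1, and the granulin precursor Grn, a lysosomal growth factor, had 1033 and 1228 CPM against 108 and 141. In contrast, Hbegf, an EGF receptor ligand, had 35.5 and 58 CPM against 285 and 245, and Gas6, a ligand of AXL and MERTK, had 14.8 and 36.2 CPM against 127 and 219.6, both below the level of the other cells in each mouse. Of 15 matrix and protease genes, Mmp9 and the elastase Mmp12 passed the ratio. Mmp12 had 187 and 50.1 CPM against 2.41 and 0.879. Fn1 (fibronectin) had 849.5 and 519 CPM against 213 and 148, and Thbs1 (thrombospondin 1) had 709 and 764 CPM against 430.1 and 504. Spp1, which encodes the matrix protein osteopontin and marks a tumor macrophage state, had 1162 and 693 CPM against 372 and 293.

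Antigen presentation genes were at different levels in the 2 LATS1/2 KO mice. The 10 MHC class II genes summed to 7687 and 3944 CPM in the macrophages of replicates 1 and 2 and to 101 and 78.1 CPM in the other cells. H2-Aa, the alpha chain of I-A, was detected in 44.8% and 22.5% of the macrophages and in 38.6% and 18.8% at equal depth. The thinned intervals, 31.6% to 46% and 14.3% to 24.1%, did not overlap. With 1 mouse in each EYFP genotype, this difference is between 2 mice and has no replicate. Genes of the cell cycle were at 646 and 742 CPM in the macrophages and 1276 and 1025 CPM in the rest. Mki67, a marker of cycling cells, was detected in 9.87% and 9.91% of the macrophages, and at equal depth in 6.88% and 7.69% against 8.67% and 6.54% of the cells with Epcam at or above 10 CP10K (22.7% and 19% unthinned). The intervals of the thinned shares overlapped in both mice, and free RNA was not subtracted from either.

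Markers of other cell types were summed in the macrophages and in the rest. Of 10 dendritic cell markers 6 were detected in each mouse, with a sum of 36.5 and 29.7 CPM in the macrophages against 85.1 and 79.9 in the rest, and Clec9a and Siglech were at 0 in both. T and NK cell markers summed to 2.96 and 45.5 CPM against 7.73 and 21.9, so they were above the rest in replicate 2, where 1 macrophage had 3 or more of them. B cell markers summed to 2.96 and 5.27 CPM against 1.51 and 2.38, adipocyte markers to 0.987 and 9.88 CPM against 1.24 and 25.7 and red cell markers to 0 and 1.98 CPM against 10.2 and 3.82. Mast and basophil markers summed to 10.9 and 8.57 CPM against 94.8 and 140.4, endothelial markers to 39.5 and 103 CPM against 159 and 139 and perivascular markers to 52.3 and 36.9 CPM against 248 and 334. The last 3 groups were below the rest in both mice. Neutrophil markers summed to 47.4 and 1464 CPM against 26.8 and 196 in the rest, and in replicate 2 there were 3 macrophages with 3 or more of these 5 genes. Fibroblast markers stood at 1238 and 791 CPM against 13810.3 and 13809 in other cells with Epcam under 10 CP10K.

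The reporter was rare in the macrophages, and the floxed genes stood near their level in other cells. EYFP was detected in 1.06% and 0.385% of the macrophages at 2000 UMIs per cell, against 8.07% and 11% of the cells with Epcam at or above 10 CP10K. Unthinned, the shares were 1.79% and 3.3% and 19.1% and 24.2%. Lats2 had 35.5 and 32.9 CPM against 28.9 and 32.2 and Lats1 had 12.8 and 17.1 CPM against 17.6 and 18.8. The 3' tags may lie outside the floxed exons, so these levels do not check the deletion. Targets of YAP and TAZ, the transcriptional coactivators that LATS kinases restrain, summed to 301 and 353 CPM in the macrophages and 1807 and 2054 CPM in the rest. Ctgf, a widely used target, had 40.5 and 81 CPM against 487 and 694.

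With 4 and 5 WT cells, LATS1/2 KO and WT macrophages were compared by values without a test. Arg1 had 0 UMIs in both WT libraries, which allows up to 120 and 117 CPM by the exact Poisson interval, beside 1117 and 714 CPM in LATS1/2 KO. Spp1 was at 97.6 CPM (95% interval 20.1 to 285) and 63.4 CPM (95% interval 7.68 to 229) in the WT cells, beside 1162 and 693 CPM in LATS1/2 KO. Tgfbi stood at 423 CPM (95% interval 225 to 723) and 190.2 CPM (95% interval 69.8 to 414) in WT, beside 1619 and 1350.1 CPM. For these genes both WT values lay below both LATS1/2 KO values.

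MHC class II had the opposite order in the same cells, but in WT replicate 2 this rested on 1 cell. There the 10 MHC class II genes summed to 22244 CPM in the 1 cell with Mrc1, which held 16004 UMIs. In the 4 cells without Mrc1 they summed to 2124 CPM, below the 7687 and 3944 CPM of the LATS1/2 KO macrophages. The 1 cell with Mrc1 was also among those with the highest doublet scores of its library. Cd74, the invariant chain, was at 23968 CPM (95% interval 22268 to 25762) and 5897 CPM (95% interval 5079.7 to 6808) in WT and at 3766 and 1879.8 CPM in LATS1/2 KO. H2-Aa was at 6862 CPM (95% interval 5967 to 7853) and 2124 CPM (95% interval 1646 to 2698) in WT and at 1173 and 517 CPM in LATS1/2 KO. Retnla, a secreted product of alternatively activated macrophages, reached 7447 and 7450.1 CPM in WT from 1 cell in each mouse, and was at 1.97 and 38.2 CPM in LATS1/2 KO. Dendritic cell markers summed to 195 and 317 CPM in the WT cells, and 1 of the 5 cells of WT replicate 2 had 3 or more of them. A change within macrophages and a different mix of myeloid cells cannot be told apart in so few cells, and the Poisson intervals leave out the variation between cells.

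Mrc1 was detected in a large minority to a small majority of the LATS1/2 KO macrophages. It was found in 41.7% (95% interval 35.2 to 48.5) of those in replicate 1 (93 of 223) and 54.1% (95% interval 48.5 to 59.5) in replicate 2 (180 of 333). At 2000 UMIs per cell these shares were 31.2% and 39.6%, against 0.469% and 0.558% of the cells with Epcam at or above 10 CP10K (1.5% and 2.45% unthinned). Mrc1 was thus above its share in epithelial droplets in both mice. In WT, 1 of 4 and 1 of 5 cells had it. The median depth was 4379 and 4125 UMIs with Mrc1 and 3982.5 and 3679 without it, so the cells without Mrc1 were the shallower ones, and a 0 does not show that the gene was silent.

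Macrophages with and without Mrc1 were then compared within each LATS1/2 KO mouse, with counts summed per mouse and state (4 sums) and the mouse as a block in edgeR. The p-values set each difference against a spread shared over all genes, taken from 4 sums of 2 mice. They do not follow the spread of a single gene between the mice. CPM of single genes is TMM-scaled in this comparison. At an adjusted p under 0.05, 182 of 6623 genes were called (2.75%), of which 88 (1.33%) were higher and 94 (1.42%) lower in macrophages with Mrc1. Of the 182, 173 had the same direction in both mice. Macrophages with Mrc1 had more Sepp1, Ccl6, Maf and Vcam1, and less Spp1, Ccl5 and interferon-induced RNA. Most UMIs of Ccl5 and of the interferon-induced genes Rsad2, Cxcl10 and Ifit1 were in 5 macrophages of each mouse. For Ifit1 the share was 85.3% and 75%. The decreases in Ctsk, Mmp9 and Acp5 were carried mostly by 18 cells that are described apart. The states also differed in the rule markers. In replicates 1 and 2, 80 of 93 and 146 of 180 macrophages with Mrc1 had at least 6 of the 8. Without Mrc1 it was 94 of 130 and 96 of 153. The 8 markers summed to 21608 and 19433 CPM with Mrc1 and 15393 and 15574 CPM without it. With at least 6 markers required, 92 genes were called, and 43 of 63 named genes tested kept their call.

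The number of calls moved strongly with the method, from 182 to 13 with DESeq2, 13 without the mouse as replicate block, 22 at 2000 UMIs per cell, 55 without the highest doublet scores and 25 without macrophages holding any Epcam UMI. With 4 sums, edgeR had 1 residual degree of freedom and took the spread as shared over all genes, so its p-values do not widen for a gene carried by a few cells. For this reason the share of a gene's UMIs in its 5 highest macrophages is given beside some of the genes that rest on few cells. Where it is not given, a gene may still rest on few cells. Of the called genes, only Vcam1 and Ccl5 passed the threshold in all 13 alternatives.

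Among genes higher with Mrc1, the broadest were products of mature tissue macrophages. Sepp1, which encodes the secreted selenium carrier selenoprotein P, had 572 CPM with Mrc1 and 234 CPM without it in replicate 1, and 989.7 and 319 CPM in replicate 2 (log2 fold change 1.48, SE 0.15, edgeR adjusted p = 7.00e-21). It was detected in 65.6% and 80% of the macrophages with Mrc1 and in 45.4% and 47.7% of those without. The chemokine Ccl6 had 1984 CPM with Mrc1 and 672 CPM without it in replicate 1, and 1113 and 533 CPM in replicate 2 (log2 fold change 1.31, SE 0.12, edgeR adjusted p = 5.30e-23). Both sums with Mrc1 lay above both sums without it for each of these 2 genes.

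Maf, a transcription factor gene of differentiated macrophages, and Apoe were also higher. Maf had 154 CPM with Mrc1 and 76.8 CPM without it in replicate 1, and 228 and 78.6 CPM in replicate 2 (log2 fold change 1.31, SE 0.21, edgeR adjusted p = 7.93e-08). Apoe had 29462 CPM with Mrc1 and 19556 CPM without it in replicate 1, and 27688 and 18747 CPM in replicate 2 (log2 fold change 0.58, SE 0.07, edgeR adjusted p = 2.45e-12). The groups did not overlap for Maf or Apoe, and the fold was smaller for Apoe.

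Vcam1, an adhesion molecule that binds leukocyte integrins, had 128 CPM with Mrc1 and 34.9 CPM without it in replicate 1, and 183 and 37.8 CPM in replicate 2 (log2 fold change 2.11, SE 0.24, edgeR adjusted p = 1.17e-15), with 57.3% and 31.3% of its UMIs in 5 macrophages. Fcgrt, the neonatal Fc receptor that recycles IgG, had 149 CPM with Mrc1 and 50.6 CPM without it in replicate 1, and 148 and 58.2 CPM in replicate 2 (log2 fold change 1.44, SE 0.22, edgeR adjusted p = 3.88e-08). Fcrls, a scavenger receptor of the Fc receptor-like family, had 74.7 CPM with Mrc1 and 26.2 CPM without it in replicate 1, and 51.7 and 10.2 CPM in replicate 2 (log2 fold change 1.85, SE 0.35, edgeR adjusted p = 2.33e-05). The rest of the 10 largest increases among genes with at least 50 CPM on average in 1 state were the CCR2 ligand Ccl7 (217 against 89.1 CPM and 234 against 68.4 CPM), the chemokine Ccl8 (32.7 against 12.2 CPM and 72.9 against 8.73 CPM), the clathrin adaptor subunit Ap1b1 (95.7 against 41.9 CPM and 107 against 43.7 CPM) and the IGF-binding protein Igfbp4 (100.3 against 22.7 CPM and 52.9 against 36.4 CPM), each in replicates 1 and 2. All 10 were higher in both mice, and 66.7% and 73.5% of the Ccl8 UMIs were in 5 macrophages. For Fcrls these shares were 44.7% and 47.1%, and for Igfbp4 53.6% and 45.7%.

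**Figure D3:**
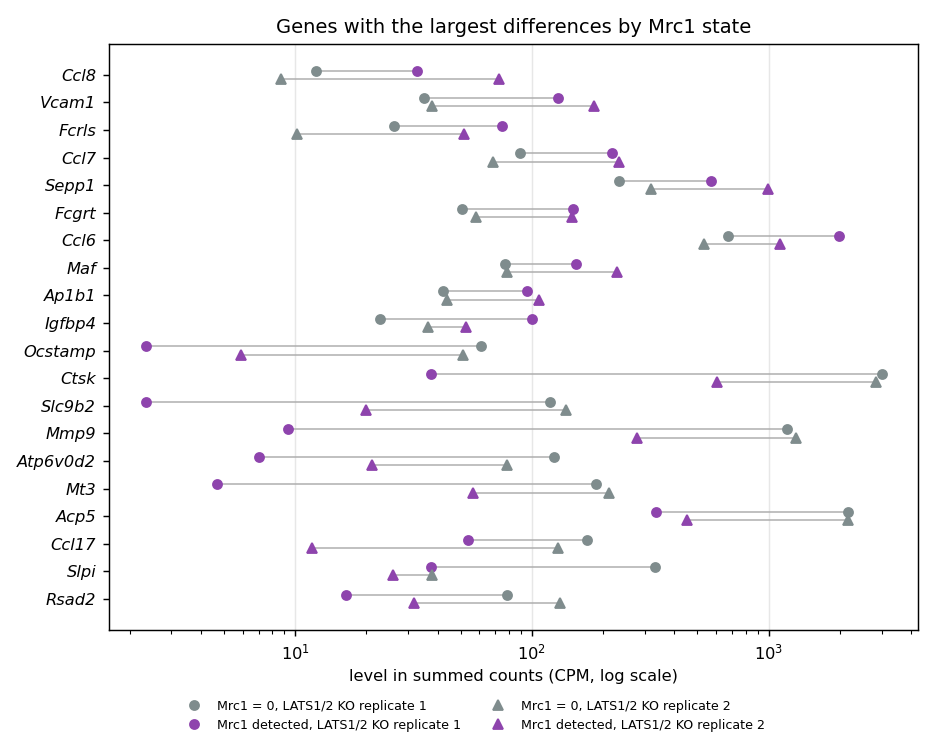
Level (CPM of summed counts, log scale) of the 10 genes with the largest and the 10 with the smallest fold change by Mrc1 state among called genes with at least 50 CPM on average in 1 state, with purple points for macrophages with Mrc1 detected, grey points for those without, circles for LATS1/2 KO replicate 1 and triangles for replicate 2. Purple lies to the right of grey in both mice for the upper 10 genes, such as Vcam1, and to the left for the lower 10, such as Ctsk.

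By gene group, resident-type genes and interferon-induced genes had opposite directions. Of 15 genes of the Lyve1-type resident group, 10 passed the filter on low counts, 8 were higher and 0 lower with Mrc1, and the median log2 fold change was 1.40 against -0.01 over all genes tested. The 8 were Ccl8, Cd163, F13a1, Folr2, Maf, Pf4, Sepp1 and Stab1. Folr2, a folate receptor, had 46.7 CPM with Mrc1 and 5.24 CPM without it in replicate 1, and 48.2 and 10.2 CPM in replicate 2 (log2 fold change 2.54, SE 0.44, edgeR adjusted p = 1.35e-06). In replicates 1 and 2, 65.2% and 37.5% of its UMIs were in 5 macrophages. Cd163, the hemoglobin scavenger receptor, had 23.3 CPM with Mrc1 and 1.75 CPM without it in replicate 1, and 32.9 and 2.91 CPM in replicate 2 (log2 fold change 3.48, SE 0.67, edgeR adjusted p = 3.51e-05), with 100% and 70% of its UMIs in 5 macrophages. Lyve1 itself was detected in 3 and 2 macrophages, and Timd4 and Cd209f in none, so Lyve1, which gives this group its name, was nearly absent.

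Of 14 chemokines tested, 7 were higher (Ccl2, Ccl6, Ccl7, Ccl8, Ccl9, Ccl12 and Cxcl1) and 2 were lower (Ccl5 and Cxcl10), with a median of 0.47. Ccl9, a CCR1 ligand, had 975 against 444 CPM and 494 against 386 CPM with and without Mrc1 in replicates 1 and 2, and Ccl2 had 443 against 391 CPM and 610 against 322 CPM. Ccl12 was higher in the summed counts but reversed at 2000 UMIs per cell. Of 13 chemokine and cytokine receptors, Ccr1, Ccr2 and Il4ra were higher and 0 lower. The monocyte receptor Ccr2 had 282 CPM with Mrc1 and 145 CPM without it in replicate 1, and 195 and 137 CPM in replicate 2 (log2 fold change 0.73, SE 0.18, edgeR adjusted p = 0.00461). Of 8 monocyte markers tested, Ccr2 was the only 1 called higher, Ly6c2, Chil3, Ms4a4c and Vcan were called lower, and 3 had no call. The fold change was positive for 2 of the 8 and negative for 6. Ccr2 passed the threshold in 7 of the 13 alternatives.

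Ly6c2, which encodes the Ly6C antigen of inflammatory monocytes, had 42 CPM with Mrc1 and 99.6 CPM without it in replicate 1, and 29.4 and 87.3 CPM in replicate 2 (log2 fold change -1.42, SE 0.26, edgeR adjusted p = 1.38e-05). Chil3, a chitinase-like lectin, had 182 CPM with Mrc1 and 199 CPM without it in replicate 1, and 259 and 896 CPM in replicate 2 (log2 fold change -1.17, SE 0.16, edgeR adjusted p = 1.65e-10), so its difference was mostly in replicate 2. In replicates 1 and 2, 58.9% and 37.7% of its UMIs were in 5 macrophages. Of 11 interferon response genes tested, 0 were higher and 6 were lower with Mrc1 (Cxcl10, Ifit1, Ifit2, Ifit3, Isg15 and Rsad2), with a median of -0.68. Rsad2, the antiviral protein viperin, had 16.3 CPM with Mrc1 and 78.6 CPM without it in replicate 1, and 31.7 and 131 CPM in replicate 2 (log2 fold change -2.09, SE 0.27, edgeR adjusted p = 9.11e-12), with 69.2% and 74.4% of its UMIs in 5 macrophages. Cxcl10, a CXCR3 ligand that attracts T cells, had 35 CPM with Mrc1 and 155 CPM without it in replicate 1, and 32.9 and 100.4 CPM in replicate 2 (log2 fold change -1.84, SE 0.25, edgeR adjusted p = 1.16e-10), with 75% and 69.1% in 5. Ccl5, a T cell and monocyte attractant, had 46.7 CPM with Mrc1 and 190.4 CPM without it in replicate 1, and 51.7 and 143 CPM in replicate 2 (log2 fold change -1.69, SE 0.22, edgeR adjusted p = 1.64e-11), with 66.7% and 54.2% in 5. These differences were thus carried largely by a few macrophages in each mouse. Cxcl10 was detected in 7.53% and 10% of the macrophages with Mrc1 and in 11.5% and 5.88% of those without. Its detection thus went the other way in replicate 2. For Rsad2 the shares were 5.38% and 8.89% with Mrc1 and 10.8% and 9.15% without. For Ccl5 they were 6.45% and 7.22% with Mrc1 and 14.6% and 12.4% without.

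Among 12 lipid-associated genes, Spp1 and Cd9 were lower and 0 higher, with a median of -0.14. Spp1 had 791 CPM with Mrc1 and 1465 CPM without it in replicate 1, and 382 and 1058 CPM in replicate 2 (log2 fold change -1.18, SE 0.13, edgeR adjusted p = 2.33e-17). It was detected in 55.9% and 33.3% of the macrophages with Mrc1 and in 62.3% and 43.1% of those without. Trem2, in the same group, had 413 CPM with Mrc1 and 341 CPM without it in replicate 1, and 378 and 412 CPM in replicate 2 (log2 fold change 0.06, SE 0.15, edgeR adjusted p = 0.94). In the alternative activation group the calls went both ways, with Cd163 and Il4ra higher and Ccl17 and Chil3 lower among 9 tested. Ccl17, a CCR4 ligand made by dendritic cells and some macrophages, had 53.7 CPM with Mrc1 and 171 CPM without it in replicate 1, and 11.8 and 129.5 CPM in replicate 2 (log2 fold change -2.43, SE 0.26, edgeR adjusted p = 5.78e-18), with 76% and 90.9% of its UMIs in 5 macrophages. Arg1 had 1146 CPM with Mrc1 and 1119.5 CPM without it in replicate 1, and 649 and 773 CPM in replicate 2 (log2 fold change -0.11, SE 0.12, edgeR adjusted p = 0.85), so its direction differed between the mice.

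Of 14 lysosomal genes tested, Lamp1, Lgmn and Ctsb were higher with Mrc1. Lgmn, an asparagine-specific endopeptidase, had 2019 CPM with Mrc1 and 1301 CPM without it in replicate 1, and 1984 and 1307 CPM in replicate 2 (log2 fold change 0.62, SE 0.11, edgeR adjusted p = 5.63e-06), and the lysosomal membrane protein gene Lamp1 had 940.4 against 632 CPM and 1063 against 661 CPM. Among complement, Fc and integrin receptors, C3ar1 and the inhibitory IgG receptor Fcgr2b were higher and 0 lower of 11. Scavenger receptors Cd163 and Stab1 were higher and 0 lower of 10.

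Several groups had no call in either direction. MHC class II (7 tested, median 0.03), inflammatory cytokines and NF-kB feedback (9 tested, 0.16), secreted growth factors (9 tested, -0.11), cell cycle (14 tested, 0.27), YAP/TAZ targets (5 tested, -0.13) and the CSF axis (3 tested, 0.10) were all in this state. Summed over the group, MHC class II stood at 7644 and 3948 CPM with Mrc1 and 7719 and 3939.9 CPM without it, so the gap between the mice was larger than that between the states. In glycolysis and hypoxia Aldoa was lower among 11 tested, in iron and heme Cd163 was higher and Tfrc lower among 8, in classical activation Cxcl10 was lower among 5, and in the dissociation group Dusp1, Fosb and Zfp36 were higher among 15.

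**Figure D4:**
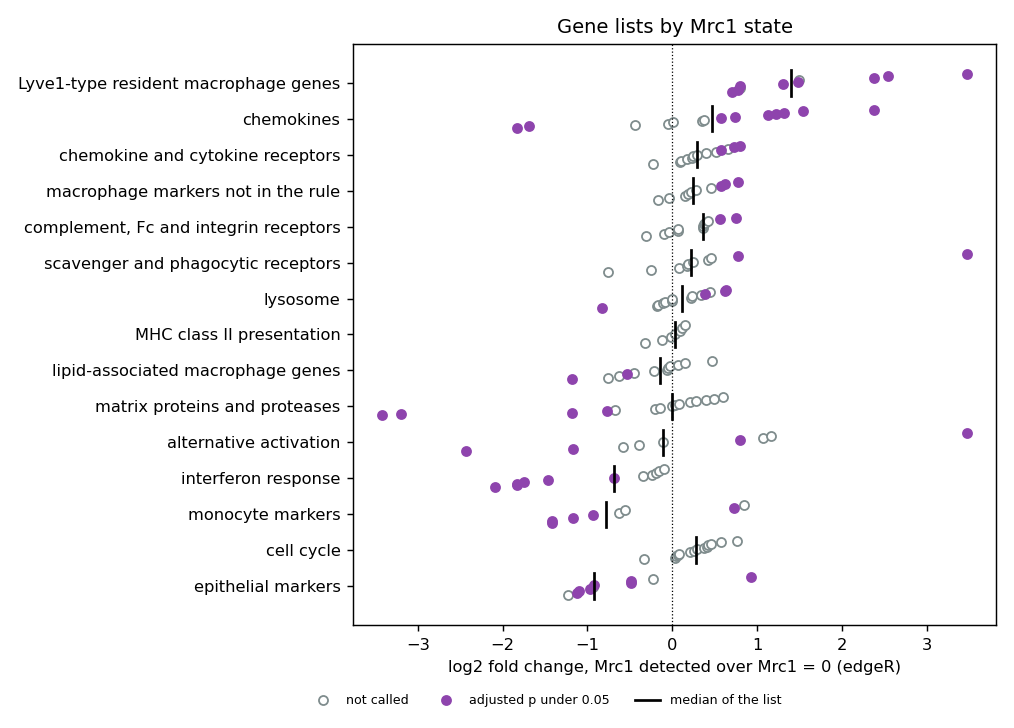
Log2 fold change by Mrc1 state (edgeR, macrophages with Mrc1 over those without) for each tested gene of 15 gene groups, with filled points for genes at an adjusted p under 0.05, open points for the others and a bar at the group's median. The resident-type group lies to the right of 0 (median 1.40) and the interferon group to the left (-0.68), while some epithelial calls reverse in alternative settings.

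Markers of other cells also moved with the Mrc1 state. Of 10 epithelial markers 6 were called lower with Mrc1 (Csn3, Krt8, Krt14, Krt18, Krt19 and Wfdc18) and Trf was called higher. Their sum was 1876 and 1819.7 CPM with Mrc1 and 2188 and 2811 CPM without it in replicates 1 and 2. The 6 luminal genes used above for free RNA stood at 8.81% and 8.04% of their epithelial level with Mrc1 and at 9.64% and 11.7% without it. Trf is 1 of these 6 and went the other way, which narrows that difference. It had 331 against 204 CPM and 334 against 151 CPM with and without Mrc1 in replicates 1 and 2. The directions of Krt8, Krt14, Krt18 and Wfdc18 reversed in at least 1 alternative. Col1a1, Col1a2 and Col3a1 were called higher from replicate 1 alone, where Col1a1 had 728 against 183 CPM, while replicate 2 had 207 against 237 CPM. Neutrophil markers summed to 48.3 and 1633 CPM with Mrc1 and 46.6 and 1259 CPM without. With the 3 macrophages that held 3 or more neutrophil markers left out 175 genes were called, and with macrophages holding any Epcam UMI left out 25. In the latter, 22 of the 63 named genes that could be tested kept their call. The part of fibroblast RNA in the other differences was not tested.

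Many of the most negative fold changes were those of genes known from osteoclasts, the bone-resorbing relatives of macrophages. Ctsk, the collagen-degrading protease cathepsin K, had 37.3 CPM with Mrc1 and 3004 CPM without it in replicate 1, and 603 and 2833 CPM in replicate 2 (log2 fold change -3.42, SE 0.13, edgeR adjusted p = 1.02e-138). Mmp9, a gelatinase, had 9.33 CPM with Mrc1 and 1195 CPM without it in replicate 1, and 277 and 1305 CPM in replicate 2 (log2 fold change -3.20, SE 0.16, edgeR adjusted p = 5.10e-88). Acp5, tartrate-resistant acid phosphatase, had 334 CPM with Mrc1 and 2167 CPM without it in replicate 1, and 454 and 2174 CPM in replicate 2 (log2 fold change -2.46, SE 0.13, edgeR adjusted p = 2.09e-79). In both mice the sums without Mrc1 were the high ones, and for Ctsk and Mmp9 the level with Mrc1 was higher in replicate 2 than in replicate 1.

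The other genes of this kind were Slc9b2, a sodium/proton exchanger (2.33 against 119 CPM and 20 against 139.7 CPM), Atp6v0d2, a subunit of the proton pump (7 against 124 CPM and 21.2 against 78.6 CPM), and Ocstamp, which is needed for cell fusion (2.33 against 61.1 CPM and 5.88 against 50.9 CPM), with and without Mrc1 in replicates 1 and 2. Mt3, a metallothionein (4.67 against 187 CPM and 56.4 against 212 CPM), and Slpi, a secreted protease inhibitor (37.3 against 330.1 CPM and 25.9 against 37.8 CPM), completed the 10 largest decreases under the same limit. Slpi is also an epithelial gene, and 82.4% and 52.1% of its UMIs were in 5 macrophages. For Mt3 the share in 5 macrophages was 88.1% and 92.3%.

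These genes were concentrated in a few cells. Taking Ctsk, Acp5, Mmp9, Slc9b2, Atp6v0d2, Ocstamp and the fusion gene Dcstamp, a set chosen after the values were seen, 8 macrophages of replicate 1 and 10 of replicate 2 had 4 or more of the 7, or 3.59% (95% interval 1.56 to 6.95) and 3% (1.45 to 5.45). Mrc1 was detected in 1 and 2 of them. They held 96.9% and 96.1% of all Ctsk UMIs of the macrophages. Only 1 and 3 macrophages had exactly 3 of the 7 genes, so cells in between were rare. The 18 cells were deeper than the others, with medians of 8667.5 and 7801 UMIs against 4153 and 3776.

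In these 18 cells Ctsk stood at 22109.8 and 18809 CPM in replicates 1 and 2, against 57.6 and 69 CPM in the remaining macrophages. Nfatc1, the master transcription factor of osteoclasts, was not among the 7 genes and was detected in 8 of 8 and 7 of 10 of them, against 10.2 and 11.1% of the remaining macrophages. The RANK receptor Tnfrsf11a was found in 7 of 8 and 5 of 10, and the integrin Itgb3 in 5 of 8 and 3 of 10, against 8.37 and 16.1% and 0.93 and 1.24% of the others. All 3 genes were thus detected more often in the 18 cells in both mice, and no test was made, since the cells were chosen by related genes.

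General macrophage genes were split in the same cells. Cd68 was detected in all 18. So were Csf1r and Tyrobp, which belong to the rule that admitted the cells. C1qa stood at 158 and 278 CPM against 3357 and 3534 CPM in the remaining macrophages, and Lyz2 at 263 and 23.9 against 4935 and 4612. Adgre1 was found in 0 of 8 and 2 of 10. Cd74 stood at 605 and 111 against 4023 and 2039 CPM, and Apoe at 5337 and 4861 against 24978 and 25739.7 CPM. C1qa, Lyz2, Cd74 and Apoe were thus at lower CPM in the Ctsk cells in both mice, and C1qa and Lyz2 are themselves rule genes. Collagen RNA was low in them, with Col1a1 at 65.7 and 39.8 CPM against 439 and 239.9, whereas Krt8 was at 171 and 2586 CPM, against 523 and 483, so epithelial RNA was present among the 10 cells of replicate 2. The part of depth and of doublets in these cells was not tested.

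Without the 18 cells the comparison by Mrc1 state called 96 genes instead of 182, of which 78 were among the 182. Ctsk then had a log2 fold change of -0.39 (edgeR adjusted p = 0.75) and Acp5 of -0.12 (edgeR adjusted p = 0.915), and Mmp9, Slc9b2, Atp6v0d2, Ocstamp and Mt3 fell under the filter on low counts. Of 62 named genes tested there, 42 kept their call and 20 lost it. Among those that lost it were Ccl2, Ccr1, Il4ra, C3ar1, Fcgr2b, Stab1, Ctsb and Ccr2, the last at 0.54 (edgeR adjusted p = 0.133). Among those that kept it were Sepp1 at 1.31 (edgeR adjusted p = 3.86e-17), Vcam1 at 1.92 (edgeR adjusted p = 2.04e-12) and Spp1 at -1.46 (edgeR adjusted p = 2.61e-28).

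**Figure D5:**
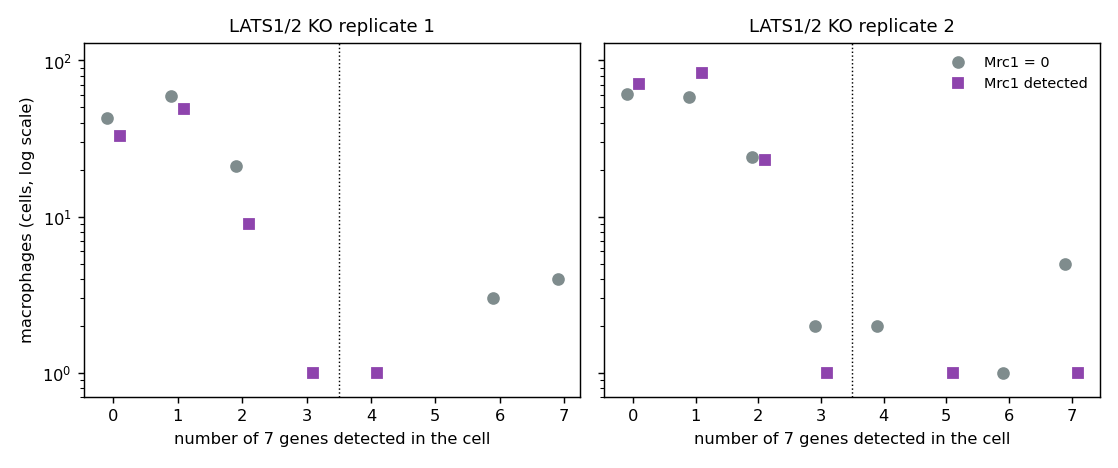
Number of macrophages (log scale) by how many of Ctsk, Acp5, Mmp9, Slc9b2, Atp6v0d2, Ocstamp and Dcstamp were detected in the cell, for each LATS1/2 KO mouse, with grey circles for cells without Mrc1, purple squares for cells with it and a dotted line at the limit of 4 genes. In both mice 0 to 2 genes is the usual number, 3 is rare, and most of the 18 cells past the line (8 and 10) had no Mrc1.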

How the data were processed

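UMI counts were deposited by the authors as filtered Cell Ranger matrices (10x Genomics 3' v3, 1 library per mouse), with Cell Ranger 6.1.2 in the file headers, 3.1.0 in the submitters' processing notes, and build mm10 there. Replicate numbers pair no WT with LATS1/2 KO mice. CPM is per 1000000 UMIs of summed cells, TMM-scaled in the Mrc1 comparison. Counts were summed per mouse and Mrc1 state and tested in edgeR 4.0.16 (quasi-likelihood, TMM, filterByExpr, mouse as replicate block since both sums came from the same mouse, Benjamini-Hochberg). Mrc1 and the 12 rule genes stayed in library sizes but were not tested. DESeq2 1.42.0 was an alternative, with R 4.3.3, Python 3.11.15 and scanpy 1.11.5. The test was first run on simulated data. Named genes were the 10 largest and smallest fold changes among called genes with the same direction in both mice and at least 50 CPM in 1 state, the 20 leading genes, and genes of the lists; Ptprc, Dcstamp, Nfatc1, Tnfrsf11a and Itgb3 were named after values were seen. Scrublet called 85 kept cells as doublets, 80 of them in LATS1/2 KO replicate 2, so its highest scores were left out as an alternative. The members and lists were chosen with earlier results of these data known. Some results are not reported here.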

Additional observations from a re-analysis of the deposited data

Results flagged for a closer look

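Cells with 4 or more of Ctsk, Acp5, Mmp9, Slc9b2, Atp6v0d2, Ocstamp and Dcstamp were also found outside the macrophages as defined here. There were 11 such cells in the LATS1/2 KO libraries (5 in replicate 1 and 6 in replicate 2) and 0 in the WT libraries, and none had Epcam at or above 10 CP10K. Of the 11, 10 had 3 of the 8 rule markers and so missed the limit of 4 by 1 gene. They stand out because they lie outside the macrophages described above, where they counted only among the other cells, and because 0 such cells were found in WT. The WT libraries held 577 and 353 kept cells with Epcam under 10 CP10K and 9 macrophages, and 0 of 4 and 0 of 5 WT macrophages allow a share of such cells of up to 60.2% and 52.2% (exact 95% interval). With the 18 macrophages of the same kind, 29 cells of the 2 LATS1/2 KO mice held this combination.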

How the results depend on the processing

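The count of genes called by Mrc1 state was the least stable result. It was 182 in the analysis as reported, 13 with DESeq2, 13 with no replicate block, 22 with cells thinned to 2000 UMIs, 92 with at least 6 of 8 markers and 55 without the highest Scrublet scores. In alternatives chosen after seeing the data it was 25 without macrophages with any Epcam UMI and 96 without the 18 macrophages with Ctsk-group genes. Counts of 132 to 248, within 1.5 times of 182, came from RLE size factors, no low-count filter, Mrc1 at 2 or more UMIs, under 10% mitochondrial UMIs, and leaving out macrophages with dendritic or with neutrophil genes. The causes of these shifts were not tested.

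The directions of named genes changed in few cases. At 2000 UMIs Ccl12 turned to -0.14 and Krt18 to 0.10 (log2). With Mrc1 at 2 or more UMIs Col1a1, Col1a2 and Col3a1 turned to -0.50, -0.44 and -0.34, without the highest Scrublet scores to -0.30, -0.11 and -0.082, and without LATS1/2 KO replicate 1 to -0.19, -0.22 and -0.057, while without replicate 2 they were 1.97, 1.93 and 1.29. With at least 6 markers Krt18 and Krt8 turned to 0.22 and 0.046, without the Ctsk-group macrophages to 0.13 and 0.021, and without Epcam UMIs Krt14 and Wfdc18 to 0.15 and 0.11. Of 853 values of 68 named genes in all alternatives, 574 kept direction and call, 265 kept direction only and 14 reversed.

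The mean share of macrophages with Mrc1 was 47.9% as reported and 35.4% at 2000 UMIs per cell, and 41.7% to 54.1% when either mouse was left out. The difference in macrophage share between LATS1/2 KO and WT was 5.52 percentage points and positive in every alternative run (4.21 to 13.9, and 4.84 to 6.20 leaving out each mouse in turn), with an exact permutation p of 0.333 in each, which this design cannot go below. Leaving out a mouse gives no test of the Mrc1 comparison, since no residual degrees of freedom remain.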
